A study of Mus musculus with 12 samples.

Results

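The genes described here are 34 genes of the endoplasmic reticulum (ER) that bring secretory and membrane proteins into the ER, cut and glycosylate them, fold them and pass them on. They were taken by name from a list and not for their values, and all 34 were found among the 43346 annotated genes of the tables. They fall into 7 roles: signal recognition (2 genes), the channel and its partners (7), the translocon-associated protein complex (4), signal peptidase (5), oligosaccharyltransferase (8), folding (6) and export (2). RNA was measured by Smart-seq, a full-length cDNA method for very small inputs, in 12 libraries from 1 male B6CASTF1/J mouse, a cross of Castaneus and C57Bl6, aged 14 months. Parasagittal tissue gave 13 Purkinje cells that were homogenised together, and each library was made from 1 cell-equivalent of RNA over 200 bases with spike-in RNA added. The libraries are therefore technical replicates of 1 pool. They are named by their replicate numbers, 1 to 6 and 8 to 13, and form 1 group with no treatment or control, so p-values below measure technical spread only and say nothing of variation between animals or between cells.

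A protein bound for secretion or a membrane is recognised on the ribosome by the signal recognition particle, which slows translation until the ribosome docks on the Sec61 channel. As the chain enters, signal peptidase removes its signal sequence and oligosaccharyltransferase attaches a sugar tree to asparagine residues. The lectins calnexin and calreticulin and the protein disulfide isomerases then fold it, and p24 proteins help to load it into transport vesicles. Purkinje cells, the output neurons of the cerebellar cortex, carry a large dendritic tree dense in ER.

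Total expected counts ran from 15167444 in library 5 to 27806010 in library 10, and spike-ins took 4.78% of them in library 13 to 14.6% in library 3. All 8 Purkinje markers fixed for this work (Pcp2, Pcp4, Calb1, Car8, Itpr1, Gng13, Pvalb and Homer3) reached 50 counts or more in each library, and they summed to 27411 ± 5552 TPM (a transcript level scaled by length and by library; SD, n = 12 libraries here and below). Markers of Bergmann glia and astrocytes summed to 2061 ± 672 TPM, granule cell markers to 384 ± 186, oligodendrocyte markers to 189 ± 83.5, microglial markers to 107 ± 154, endothelial and mural markers to 17.6 ± 54.7 and choroid plexus markers to 4.48 ± 11.4. Fcer1g, Cldn5, Acta2, Ttr and Folr1 had no count. The part that RNA of other cells plays in the levels below was not tested, and in a pool fewer cells of a type and less RNA per cell cannot be told apart.

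Together the 34 genes made up 3898 ± 588 TPM, with 3017 TPM in library 12, a median of 3977 TPM and 4875 TPM in library 2. That was 0.474 ± 0.0887% of the TPM of all annotated genes. The median of their mean levels was 42.3 TPM, against 8.66 TPM over all genes whose counts averaged 5 or more. Of the 34 genes, 12 averaged 100 TPM or more and 22 averaged 10 to 100 TPM, the lowest being Sec63 at 11.8 TPM. By role and in TPM as deposited, oligosaccharyltransferase summed to 999 ± 420 TPM and signal peptidase to 835 ± 248 TPM. Folding genes summed to 626 ± 241 TPM, the channel to 563 ± 173, the translocon-associated protein complex to 418 ± 195, signal recognition to 393 ± 267 and export to 66.6 ± 62.9. Neighbours in this order differed by less than the SD of either of them, apart from export, which lay below the rest. The order of the roles depends on the scale. In CPM, which are counts scaled to the library's gene total and not divided by length, folding had the largest sum, 1602 ± 544 CPM, and oligosaccharyltransferase had 1004 ± 400 CPM. With the TPM of a pseudogene identical to part of Sec61g added, as described below, the channel had the largest sum in TPM, 1319 ± 432 TPM. In CPM the pseudogene was not added. Export was lowest on each of these scales.

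**Figure D1:**
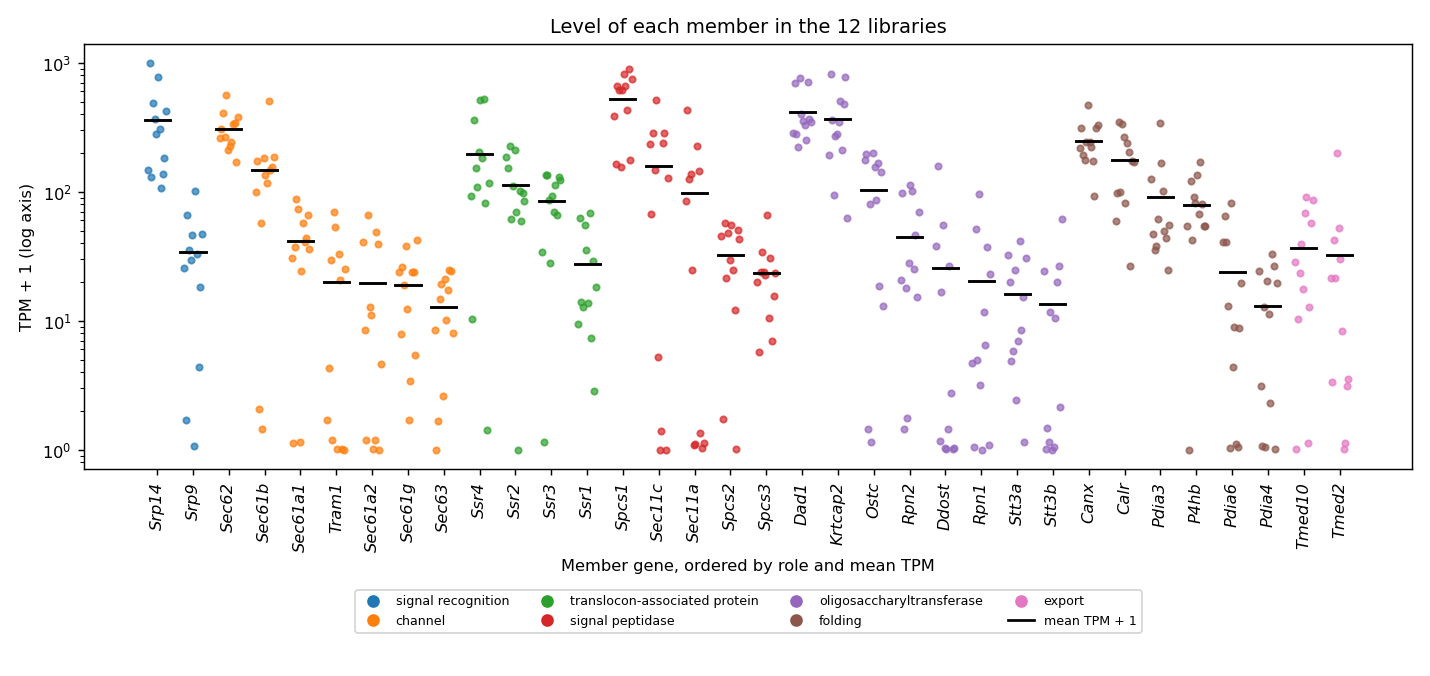
Level of each of the 34 genes in each of the 12 libraries (points, TPM + 1 on a log axis), ordered by role and by mean, with the mean as a black bar. Spcs1, Dad1, Krtcap2, Srp14, Sec62, Canx, Calr and Pdia3 stay above 20 TPM in every library, while genes such as Ddost, Tram1 and Stt3b are near 0 in several.

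Signal recognition was represented by Srp14 and Srp9, whose proteins pair on the Alu end of the particle's RNA and hold back elongation. Srp14 had 105 TPM in library 10, a median of 292 TPM and 988 TPM in library 2, and Srp9 had 0.070 TPM in library 8, a median of 30.2 TPM and 100 TPM in library 9. Srp14 was higher than Srp9 in 12 of 12 libraries, by 3.91 ± 2.76 on the scale of log2(TPM + 1) (exact two-sided sign-flip permutation test, p adjusted over the 22 pairs tested by the Benjamini-Hochberg method = 0.00215; all pair tests below are of this kind). The smallest p this test can give before adjustment is 0.000488, and 6 of the 22 pairs passed. Pairs of unrelated genes of like TPM were not tested, so this count is not a result about these complexes in particular. The Srp9 transcript Srp9-201 shares a run of 253 bases, 100% identical, with the processed pseudogene Gm13736 (chr2:87526145-87526397, GRCm38, + strand), which was itself listed at 45.3 ± 65.3 TPM. The longest run in Srp9-202, the leading Srp9 transcript in 6 of 12 libraries, was 113 bases. With the level of Gm13736 added to Srp9, an alternative chosen after its values were seen, Srp14 was higher by 3.22 ± 3.38 (adjusted p = 0.0107, higher in 10 of 12 libraries).

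Of the channel genes as listed, Sec62, whose membrane protein assists chains that enter after translation, had the highest TPM. Its coding transcripts alone averaged 67.5 ± 44.3 TPM, against 146 ± 131 TPM for those of Sec61b and 17.7 ± 13.5 TPM for those of Sec61g. Sec61g exceeded Sec62 and Sec61b in mean TPM only with the level of a pseudogene added, as described below. Sec62 had 169 TPM in library 12, a median of 285 TPM and 560 TPM in library 5. Sec61b, a small subunit of the channel, had 0.46 TPM in library 5, a median of 141 TPM and 507 TPM in library 10. Sec61a1 and Sec61a2 encode alternative forms of the pore subunit and averaged 40.7 ± 26.6 and 18.7 ± 22.8 TPM. Tram1, a membrane protein that contacts entering chains, averaged 19.2 ± 23.2 TPM and had at least 50 counts in 6 of 12 libraries. Sec63, whose protein recruits the chaperone BiP to the channel, had 0 TPM in library 2, a median of 11.4 TPM and 23.6 TPM in library 11. Sec63 was lower than Sec62 in 12 of 12 libraries, by -5.08 ± 1.69 (adjusted p = 0.00215). Sec61a2 and Sec61a1 did not pass (-1.70 ± 3.21, adjusted p = 0.193, Sec61a2 higher in 4 of 12 libraries). Neither did Sec61b against Sec61a1 (1.53 ± 3.83, adjusted p = 0.305, Sec61b higher in 9 of 12 libraries). Sec61a2 shares 867 bases of sequence with Nudt5, listed at 18.3 TPM, and since the strand of the libraries is not given, reads of the overlap cannot be assigned.

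Sec61g encodes the smallest channel subunit and was listed at 0.69 TPM in library 8, a median of 20.4 TPM and 41.0 TPM in library 13. Its level cannot be read alone, because the transcribed processed pseudogene Gm10177 (chr9:37252922-37253365, GRCm38, + strand) shares a long identical run with it. The coding sequence of Sec61g-203, a transcript of Sec61g (chr11:16500530-16508484, GRCm38, - strand), is shown from GENCODE M21, with the start and stop codons in capitals, because all 207 bases of it also lie in Gm10177:
Sec61g coding sequence: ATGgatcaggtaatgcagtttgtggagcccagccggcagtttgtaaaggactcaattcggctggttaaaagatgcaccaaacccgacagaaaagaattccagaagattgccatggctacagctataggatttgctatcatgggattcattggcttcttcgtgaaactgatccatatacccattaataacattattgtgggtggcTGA

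The identical run between Sec61g-203 and the pseudogene's 444-base transcript was 420 bases long and went past the coding sequence. Sec61g-206, which held 56.5% of the Sec61g TPM, shares a run of 420 bases too, but its 303-base coding sequence is not whole in Gm10177. Gm10177 was listed at 173 TPM in library 8, a median of 780 TPM and 1339 TPM in library 6, above Sec61g in 12 of 12 libraries. The sum of the gene and its copy was 774 ± 331 TPM, more than the mean TPM of any of the 34 genes. This rank holds for TPM, which divides by length, and not for counts. Canx averaged 17927 expected counts and Sec62 7380. The mean expected count was 319 for Sec61g and 2864 for Gm10177, the authors' deposited posterior SD was 5.14% of the count for Sec61g, and which locus reads of the shared run came from cannot be told from these files. As deposited, Sec61g did not pass against Sec61b (-2.42 ± 3.40, adjusted p = 0.0892, higher in 2 of 12 libraries) or against Sec61a1 (-0.90 ± 2.37, adjusted p = 0.318). With the copy added, both differences turned round, to 3.26 ± 2.80 and 4.79 ± 2.36 (adjusted p = 0.00179 for each, higher in 12 of 12 libraries).

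The translocon-associated protein complex, which binds beside the channel and helps chains with weak signal sequences to enter, is encoded by Ssr1 to Ssr4. Ssr4 had 0.42 TPM in library 12, a median of 134 TPM and 524 TPM in library 10. Ssr2 had 0 TPM in library 9, a median of 98.5 TPM and 225 TPM in library 3. Ssr3 had 0.14 TPM in library 2, a median of 88.4 TPM and 135 TPM in library 4. Ssr1 had 1.87 TPM in library 12, a median of 15.1 TPM and 67.3 TPM in library 9, with at least 50 counts in every library. The 4 genes reached their lowest levels in 3 different libraries. None of the 3 differences from Ssr2 passed (Ssr1 -1.98 ± 2.87, adjusted p = 0.0892; Ssr3 -0.38 ± 3.06 and Ssr4 0.39 ± 3.36, adjusted p = 0.734 for each). Without library 9, Ssr1 was lower than Ssr2 by -2.72 (adjusted p = 0.00358). The order of Ssr1 and Ssr2 rests on the length scaling: in CPM Ssr1 averaged 255 CPM, the 7th highest of the 34 genes, while by TPM it was 23rd.

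Signal peptidase held the gene with the highest mean TPM of the 34 as listed, Spcs1, which encodes an accessory subunit. In CPM Spcs1 averaged 339 CPM and ranked 4th of the 34. Spcs1 had 154 TPM in library 5, a median of 616 TPM and 887 TPM in library 11. In TPM it was higher than Spcs2, another accessory subunit, in 12 of 12 libraries, by 4.46 ± 2.16 (adjusted p = 0.00215). In CPM that difference was 2.53 ± 2.57 (adjusted p = 0.00859, Spcs1 higher in 10 of 12 libraries). Spcs2 had 0.020 TPM in library 11, a median of 35.1 TPM and 56.1 TPM in library 3. Spcs3, whose yeast counterpart is needed for activity, had 4.74 TPM in library 2, a median of 22.1 TPM and 65.5 TPM in library 8, and did not pass against Spcs2 (-0.072 ± 1.42, adjusted p = 0.861). The catalytic subunits are encoded by Sec11c and Sec11a. Sec11c had 0 TPM in libraries 8 and 12, a median of 136 TPM and 511 TPM in library 5, and Sec11a averaged 96.9 ± 129 TPM. Sec11c had at least 50 counts in 8 of 12 libraries and Sec11a in 7. They did not pass as a pair (1.21 ± 4.02, adjusted p = 0.408). In libraries 6, 8 and 12 both lay under 5 TPM, while Sec11c alone was low in library 9 and Sec11a alone in libraries 11 and 13. A run of 217 bases of a lower-ranked Spcs1 transcript, typed protein coding, is shared with the neighbour Glt8d1, which was listed at 8.88 TPM. Copies of the leading Spcs1 transcript, which held 96.4% of the Spcs1 TPM and has no type in the annotation used, were not sought.

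Oligosaccharyltransferase was led by Dad1, a small subunit, and Krtcap2, a small subunit of the form that works at the channel. Dad1 had 221 TPM in library 4, a median of 348 TPM and 767 TPM in library 5. Krtcap2 had 61.6 TPM in library 13, a median of 313 TPM and 812 TPM in library 2. Ostc, which sits in the same form of the enzyme as Krtcap2, had 0.16 TPM in library 5, a median of 113 TPM and 200 TPM in library 6, and was lower than Krtcap2 in 12 of 12 libraries (-2.68 ± 2.77, adjusted p = 0.00215). In CPM that difference was -1.83 ± 2.74 (adjusted p = 0.0569). Ddost, a core subunit, was uneven: it had 0.020 TPM in library 8, a median of 1.11 TPM and 158 TPM in library 2, with at least 50 counts in 6 of 12 libraries. Dad1 was higher than Ddost in 12 of 12 libraries, by 6.12 ± 2.65 (adjusted p = 0.00215). In the 6 libraries where both had at least 50 counts the difference was 3.97 ± 2.07, with Dad1 higher in 6 of 6 (exact p = 0.03125, adjusted p = 0.0505). That exact p is the smallest that 6 libraries can give.

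The catalytic subunits of the enzyme had its 2 lowest means in TPM, but not on other measures. By median, Ddost (1.11 TPM) and Rpn1 (4.725 TPM) were lower than both. In CPM, Stt3a averaged 81.7, above Rpn1 (70.6) and Ddost (52.8), and Stt3b averaged 52.9. Stt3a, which glycosylates chains as they enter, had 0.14 TPM in library 12, a median of 10.9 TPM and 40.3 TPM in library 9. Stt3b, which takes sites that were skipped, had 0 TPM in library 6, a median of 5.35 TPM and 60.6 TPM in library 13. They did not pass as a pair (-0.99 ± 1.75, adjusted p = 0.147, Stt3b higher in 4 of 12 libraries). Rpn2 and Rpn1, the ribophorins, averaged 43.9 ± 40.2 and 19.2 ± 28.9 TPM and did not pass (1.70 ± 3.85, adjusted p = 0.263), nor did Ddost against Rpn1 (-0.43 ± 3.60, adjusted p = 0.734).

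**Figure D2:**
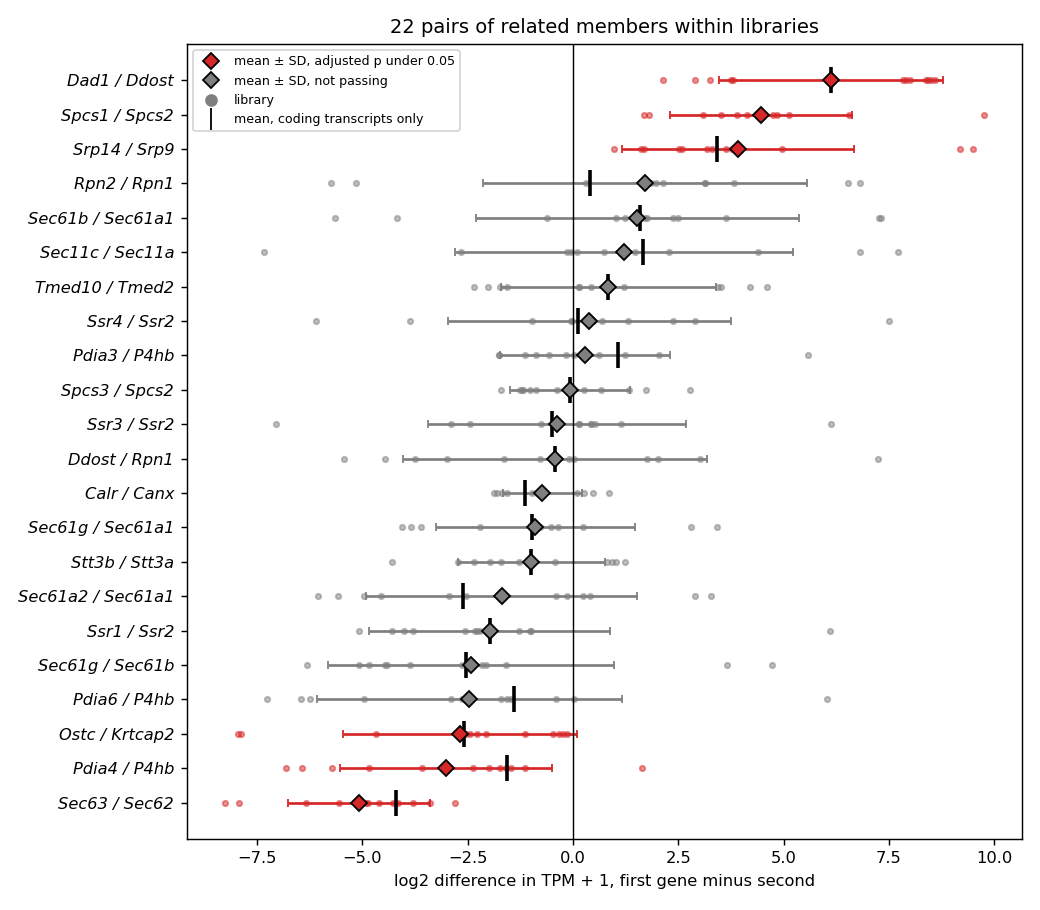
Within-library differences in log2(TPM + 1) for the 22 pairs, first gene minus second. Points are libraries, diamonds with bars are mean ± SD over 12 libraries, red marks the 6 pairs with an adjusted p under 0.05, and black ticks are the means with coding transcripts only (no tick for the pair of Spcs1). The 6 red pairs are Dad1 over Ddost, Spcs1 over Spcs2 and Srp14 over Srp9, which are positive, and Ostc, Pdia4 and Sec63 against their partners, which are negative.

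Among folding genes the lectin chaperones led. Canx, calnexin, which is anchored in the membrane, had 92.3 TPM in library 11, a median of 232 TPM and 472 TPM in library 6. Calr, its soluble relative calreticulin, had 25.6 TPM in library 11, a median of 171 TPM and 346 TPM in library 3. Both were lowest in library 11. Calr was lower than Canx in 8 of 12 libraries and the pair did not pass (-0.73 ± 0.94, adjusted p = 0.0737). It passed without library 3 (-0.87, adjusted p = 0.0246), with coding transcripts only (-1.14 ± 0.79, adjusted p = 0.0103) and in CPM (-1.78 ± 0.83, adjusted p = 0.00269). In CPM Canx had the highest level of the 34 genes, 960 CPM, and Calr averaged 309 CPM.

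The protein disulfide isomerases form and rearrange disulfide bonds. Pdia3, which works with the lectins, averaged 89.7 ± 88.6 TPM and never fell under 50 counts. P4hb, the classical enzyme, averaged 78.5 ± 45.6 TPM and was at 0 TPM in library 2. Pdia6 had 0.040 TPM in library 5, a median of 10.0 TPM and 81.5 TPM in library 6. Pdia4 had 0.020 TPM in library 12, a median of 11.0 TPM and 32.0 TPM in library 10. Pdia4 was lower than P4hb in 11 of 12 libraries, by -3.01 ± 2.52 (adjusted p = 0.00895), but with coding transcripts only the difference was -1.58 ± 2.27 (adjusted p = 0.0946) and in CPM -2.22 ± 2.86 (adjusted p = 0.0569). Pdia6 (-2.46 ± 3.62, adjusted p = 0.0892) and Pdia3 (0.29 ± 2.02, adjusted p = 0.734) did not pass against P4hb. Without library 2, Pdia6 was lower by -3.23 (adjusted p = 0.00614).

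Export was represented by Tmed10 and Tmed2, p24 proteins that cycle between ER and Golgi. Tmed10 had 0.010 TPM in library 2, a median of 25.1 TPM and 89.9 TPM in library 9. Tmed2 had 0.020 TPM in library 10, a median of 13.8 TPM and 197 TPM in library 5. They did not pass as a pair (0.83 ± 2.55, adjusted p = 0.383). Both were low in library 10, where their sum was 0.14 TPM.

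**Figure D3:**
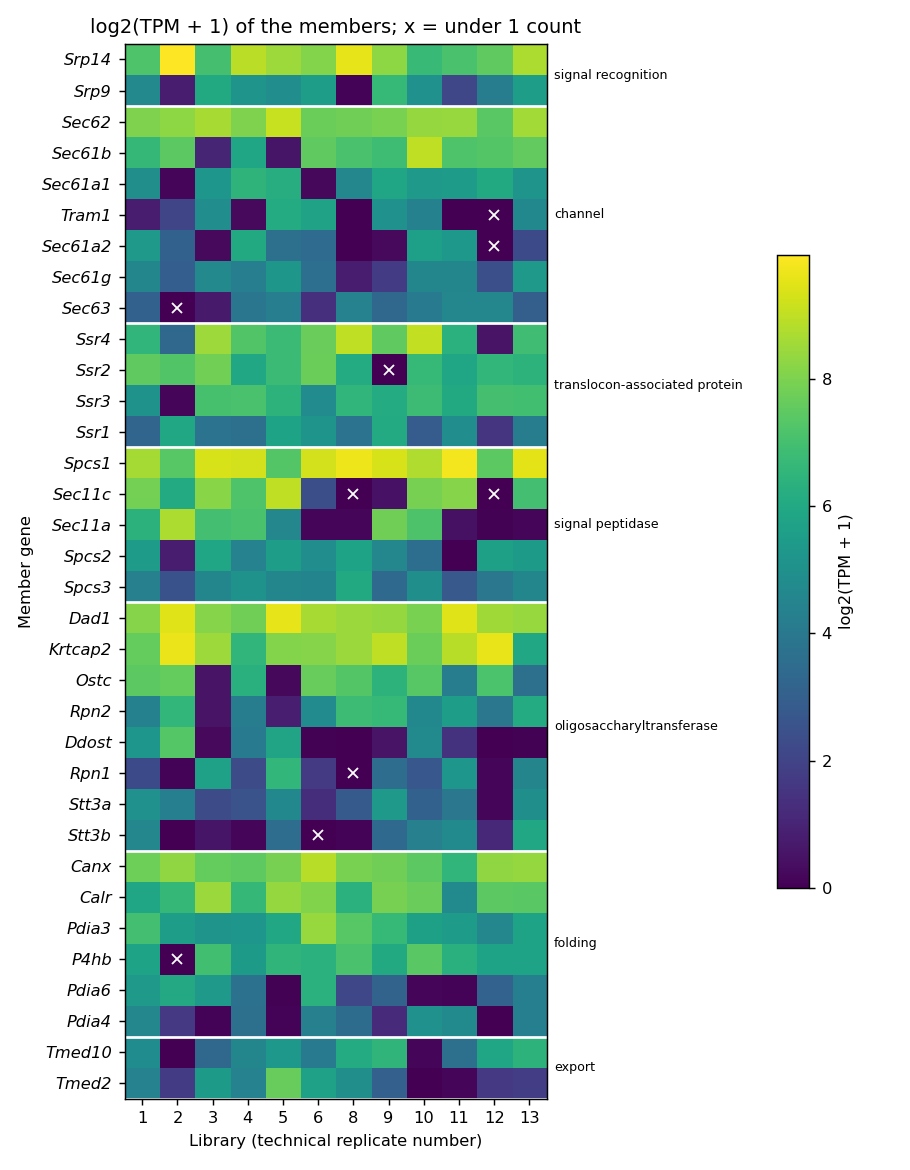
log2(TPM + 1) of the 34 genes (rows, by role) in the 12 libraries (columns, by replicate number), with a white cross where the expected count was under 1. The 9 crosses fall on 8 genes, 3 of them in library 12, and dark cells are scattered over rows and columns.

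Detection was more complete in the higher of the TPM ranges given below, but it did not follow TPM gene by gene. Ssr1 (26.5 TPM) and Spcs3 (22.7 TPM) had at least 50 counts in 12 of 12 libraries. Sec11c (158 TPM) had them in 8 and Sec11a (96.9 TPM) in 7. Of the 408 values of 34 genes in 12 libraries, 344 rested on at least 50 counts, 55 on 1 to 50 and 9 on less than 1. At least 1 count in every library was found for 26 of the 34 genes and at least 50 for 10, namely Srp14, Sec62, Ssr1, Spcs1, Spcs3, Dad1, Krtcap2, Canx, Calr and Pdia3. Among genes of 10 to 100 TPM, 16 of the 22 had at least 1 count in every library, against 39.4% of all 5385 genes in that range, and 3 of 22 had at least 50, against 13.7%. Among genes of 100 to 1000 TPM, 10 of the 12 had at least 1 count in every library, against 92.1% of all 1052, and 7 of 12 had at least 50, against 72.1%. No test was made of these shares. The number of the 34 genes with at least 50 counts was 33 in library 1, 32 in libraries 4 and 13, 25 in libraries 8 and 12 and 24 in library 2. The same libraries stood out over all annotated genes: 7775, 7827 and 8645 genes had at least 50 counts in libraries 1, 4 and 13, and 5407 to 6772 in the other libraries. Libraries 1, 4 and 13 also had the lowest spike-in shares, 5.17%, 6.12% and 4.78%, and the part of this in detection was not tested.

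The spread between libraries was large for single genes, with a median coefficient of variation of 0.869, and small for the sum, at 0.151. The SD of the sum, 588 TPM, was close to the 631 TPM that the 34 variances give if the genes vary independently. Over the 561 gene pairs the median Spearman correlation across libraries was 0.021 (range -0.88 to 0.86), against 0.014 over pairs of the 6534 genes of at least 10 TPM. In edgeR's quasi-likelihood fit, 0 of the 34 genes varied beyond the trend for genes of like abundance after adjustment over all 13899 genes tested, of which 2 passed (0.0144%). At an unadjusted p under 0.05 there was 1 of the 34, Sec11c (p = 0.0441, adjusted p = 0.773), against 95 of the 13899 genes (0.684%). DESeq2 called 0 of the 13899 genes, so its 0 of 34 says nothing about the members. The test found only a part of the variation planted in simulated data, so these counts do not show that the genes' shares were even.

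The transcript tables show which isoform each level rests on. The transcript with the highest mean TPM was typed protein coding for 30 of the 34 genes. It was not for Sec62 (Sec62-202, retained intron), P4hb (P4hb-202, processed transcript) and Sec61a2 (Sec61a2-210, retained intron), and that of Spcs1 has no type in the annotation used. Among genes of at least 10 TPM with several transcripts, 3 of 24 (12.5%) led with a transcript not typed coding, against 23.5% of 4615 genes, and by expected counts 0 of 24 did, against 14%. For Sec62, coding transcripts held 21.9% of TPM and 68.7% of counts, leaving 67.5 ± 44.3 TPM of coding transcript. For P4hb they held 36.1% of TPM and 80.9% of counts, leaving 28.4 ± 16.4 TPM. P4hb-202 is 414 bases long and all of them lie in exons of the 2861-base coding mRNA P4hb-201, between positions 1923 and 2854 of it. Sec62-202 is 639 bases long and 263 of them lie in exons of the coding mRNA Sec62-201, at positions 462 to 724 of 3967. With coding transcripts only, Sec63 stayed lower than Sec62 (-4.20 ± 1.56, adjusted p = 0.00342). Coding shares of TPM under 60% were also seen for Sec63 (36.8%), Sec11a (44.9%), Rpn2 (46.4%), Sec61a2 (53.0%) and Pdia3 (57.8%). These transcripts were singled out after their values were seen.

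**Figure D4:**
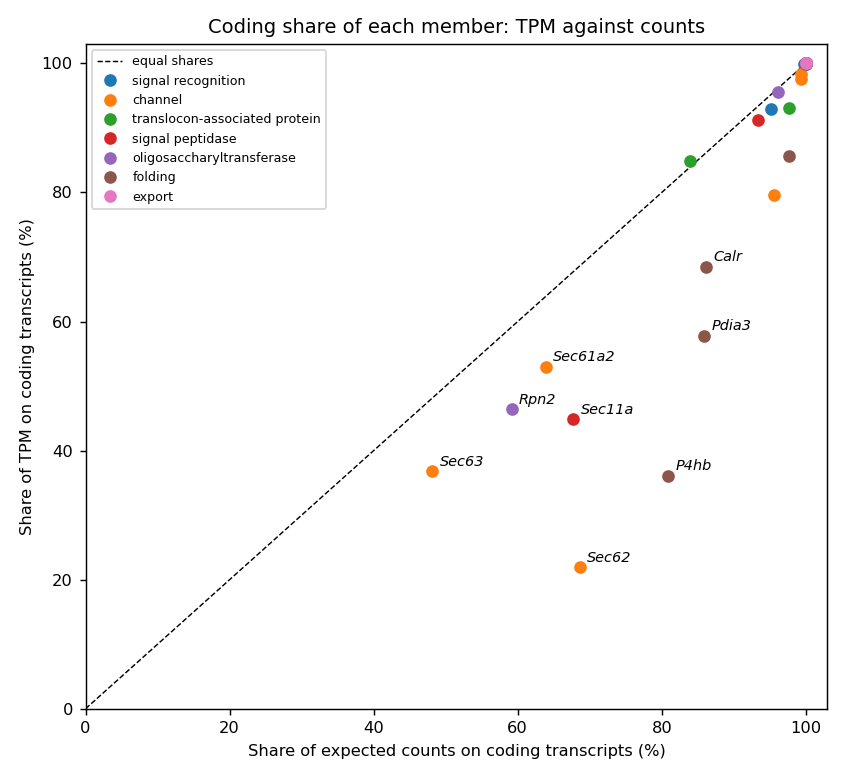
Share of each gene's expected counts (x axis, %) and of its TPM (y axis, %) on transcripts typed protein coding, coloured by role, without Spcs1, whose transcripts have no type. Sec62 (68.7% of counts, 21.9% of TPM) and P4hb (80.9% of counts, 36.1% of TPM) lie farthest below the dashed line of equal shares.

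Promoters of 27 of the 34 genes are in RefSeq's promoter table (GRCm38.p6), and the 250 bases before each start were searched on both strands for 11 motifs, chosen with these data in view. The ER stress response element, which is CCAAT and CCACG with 9 free bases between them and is bound by ATF6 and NF-Y, was in 3 of the 27 (11.1%), all of them folding genes, and in 0.130% of 27025 genes. Other genes of the pathway hold it too: it was in 3 of 18 (16.7%) promoters of the list for the rest of ER folding (Hspa5, Hsp90b1 and Dnajc3) and in 2 of 13 (15.4%) of the list for the unfolded protein response and ER-associated degradation (Syvn1 and Creld2). It contains the CCAAT box, found in 17 of 27 (63.0%) against 37.5% of all genes, and CCACG, found in 16 of 27 (59.3%) against 31.0%. The GC box GGGCGG was in 18 of 27 (66.7%) against 35.4%, and the ETS motif CCGGAAG in 5 of 27 (18.5%) against 7.83%. The remaining 6 motifs were in 0 of 27: TATAAA (14.3% of all genes), TGACGTCA (1.77%), the NRF1 motif (0.877%), TGACGTGG (0.603%), the YY1 motif (0.248%) and the ER stress response element II, ATTGG and CCACG with 1 free base between them (0.037%). No test was made of these shares, and a match is a run of letters and not a shown binding site. The 27025 genes were not matched to the members by level or by base composition, so the shares are not a result about ER genes in particular. The elements of the 3 genes and, as an example from those lists, that of Hspa5, which encodes BiP, are printed with 20 bases on either side on the strand of the gene, with the element in capitals, to show how far the letters between and around the fixed ends differ. In Calr the element reads on the opposite strand:
Canx, chr11:50325780-50325838, - strand: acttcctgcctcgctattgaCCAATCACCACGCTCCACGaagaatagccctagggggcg
Calr, chr8:84847055-84847113, - strand: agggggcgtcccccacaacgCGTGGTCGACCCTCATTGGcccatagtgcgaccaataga
Pdia6, chr12:17266471-17266529, + strand: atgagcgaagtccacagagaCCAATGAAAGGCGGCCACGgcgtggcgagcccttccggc
Hspa5, chr2:34772005-34772063, + strand: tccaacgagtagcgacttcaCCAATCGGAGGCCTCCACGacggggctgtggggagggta

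The levels of the 3 genes with the element were not alike: 248 ± 97.9 TPM for Canx, 174 ± 106 for Calr and 23.0 ± 27.4 for Pdia6. Hspa5 averaged 167 ± 90.3 TPM.

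Other genes of the pathway were read from fixed lists, of which 73 of 74 genes were found. The rest of the signal recognition particle and its receptor summed to 298 ± 137 TPM, led by Srp72 (84.9 TPM), Srp54c (52.7), Srp19 (49.8) and the receptor gene Srpr (47.3), with Srp68 (17.8) and Srprb (8.11) lowest. The rest of the translocon, oligosaccharyltransferase and membrane insertion summed to 1378 ± 352 TPM, led by the small glycosylation subunit Ost4 (347 TPM), Emc4 (219), Tmem258 (204) and Emc2 (117), with Get4 (14.7) and Tram2 (1.40) lowest. The rest of ER folding summed to 1343 ± 427 TPM, led by Erp29 (255 TPM), the prolyl isomerases Fkbp2 (246) and Ppib (204), and Hspa5. Its lowest genes were Ero1lb (0.189 TPM) and Pdia5, listed at 0 in 12 libraries. Genes of the unfolded protein response and ER-associated degradation summed to 1356 ± 349 TPM, led by Selk (453 TPM), Vimp (310), Ddit3 (151) and Sel1l (129), with Ern1 (0.563) and Trib3 (0) lowest. The other p24 genes summed to 185 ± 159 TPM, led by Tmed3 (75.5 TPM), Tmed4 (54.1), Tmed5 (32.5) and Tmed8 (10.4), with Tmed6 and Tmed11 at 0. These orders are of means, and some of the means rest on few libraries. Tmed3 had an SD of 95.1 TPM and at least 50 counts in 7 of 12 libraries. Tram2 had them in 1 library, and Ost4 and Selk in 12 of 12. A count of 0 allows up to 0.124 CPM in library 10 and up to 0.219 CPM in library 5, for counting error only.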

How the data were processed

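The authors deposited gene and transcript tables, quantified on mm10 with GENCODE M4 per the text file with each sample. Per the file headers these deposited tables hold expected counts, in which reads shared between features are divided, and TPM, which the authors computed with spike-ins included. Per the file headers they also hold a posterior SD of each count, in reads, which was handled as a signal value. No source used here names the aligner, the quantification program or the library strand. Gene names, types and transcripts were taken from GENCODE M21, built on the same assembly, and promoters from RefSeq. Selk and Vimp are the names of the fixed lists for the genes that GENCODE M21 calls Selenok and Selenos. The members, gene lists, pairs and alternatives were chosen with earlier results of these data known.

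Levels are TPM as deposited. Expected counts were rounded for edgeR 4.0.16 (TMM factors, intercept-only glmQLFit, mean count 5 or more, upper-tail F test, Benjamini-Hochberg at 0.05), with DESeq2 1.42.0 as an alternative, in R 4.3.3. On simulated data this test recovered only a part of the planted variation, also after the planting was narrowed, following a first run, to genes with high counts. Pairs used log2(TPM + 1), which understates differences of low genes, and all 4096 sign patterns. Near-identical copies were sought with blastn 2.17.0 (at least 95% identity over 200 bases), starting from the highest transcript of each gene that is typed protein coding. Total counts were 15167444 to 27806010. Reads carry no molecular identifiers, so limits cover counting error only. Named genes were all members, with ranges for the 2 highest and the 2 lowest of each role, all pairs, and the 4 highest and 2 lowest genes of each list; copies and transcripts were added after their values were seen.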

Additional observations from a re-analysis of the deposited data

How the results depend on the processing

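No conditions could be paired because the libraries form 1 group, and the pairs here are of genes within a library. The count of pairs that passed, 6 of 22, was 12 of 21 when only libraries with at least 50 counts of both genes were used, a choice that drops low values, and ranged from 6 to 8 with a library left out. It was 5 of 22 in CPM, 5 of 21 with coding transcripts only, 6 with a 0.1 TPM pseudocount, 8 with copies added and 9 with a 10 TPM pseudocount. The copies added, here and below, were Gm10177 for Sec61g and Gm13736 for Srp9 only. Near-identical sequences of Sec61a1, Sec61a2, Sec61b, Sec62, Spcs1, Spcs2 and Tmed10, and further ones of Sec61g, were not added. The highest of these with a listed level was Nudt5, at 18.3 TPM. Directions that turned round were, in CPM, Sec61b against Sec61a1 (-0.76), Ssr1 against Ssr2 (1.77), Ssr3 against Ssr2 (1.51) and Spcs3 against Spcs2 (0.38); with a 0.1 TPM pseudocount, Spcs3 against Spcs2 (0.22); with 50 counts of both genes, Pdia3 against P4hb (-0.19); and with copies added, Sec61g against Sec61a1 (4.79) and Sec61b (3.26), where the added pseudogene is the cause. Apart from the change of setting named with each, such as not dividing by length in CPM, no cause of the others was tested. With a library left out, the ranges that crossed 0 were -0.97 to 0.22 for Ssr3 and -0.26 to 0.98 for Ssr4 against Ssr2, -0.33 to 0.076 for Spcs3 against Spcs2, -1.13 to 0.026 for Ddost against Rpn1 and -0.19 to 0.48 for Pdia3 against P4hb, none of which passed on all libraries. The summed level was 4738 TPM rescaled to annotated genes, 5246 CPM when not divided by length, 2797 TPM with coding transcripts only (Spcs1 left out, having no type) and 4700.2 TPM with copies added; with a library left out it was 3810 to 3979 TPM. The 26 genes found in every library became 14 at 5 counts, 10 at 50 counts and 10 at 1 TPM, and 26 to 28 with a library left out. The genes leading with a coding transcript were 29 to 31 with a library left out and 33 by expected counts. None of the 34 genes passed the variation test under any alternative run. Coding-only values, added copies and role sums on other scales were chosen after seeing the data.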
